A study of Mus musculus with 6 samples.

Results

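Macrophage, neutrophil and dendritic cell markers are described here in 6 liver tumors of CMRtdT mice, as a set of 35 genes out of 35527 genes measured. The 35 genes were chosen by name, as genes commonly used to recognise these myeloid cells, and all 35 had reads. CMRtdT mice carry 1 *Ctnnb1* allele whose exon 3 is removed by Cre (*Ctnnb1* ex3 fl/+), the *MUP-uPA* transgene, which is expressed in hepatocytes and injures them, and a Cre-dependent tdTomato reporter in the *Rosa26* locus. Cre came from AAV8-TBG-Cre, whose TBG promoter is active in hepatocytes and not in myeloid cells. The methods describe male mice on a C57BL/6 background. High-fat feeding began at 6 weeks of age, mice received the virus at 8 weeks, and tumors were excised 6.5 months later. Mouse 2 and mouse 1 gave 3 tumors each. All 6 tumors belong to 1 condition, no liver without a tumor was measured with them here, and the only grouping in the labels is the mouse, so a comparison of mouse 2 with mouse 1 compares 2 animals. Nothing in the labels says whether tumors of 1 mouse arose from separate cells. The methods describe poly A libraries, whereas the label of the molecule is total RNA.

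The liver holds a large population of resident macrophages, the Kupffer cells, which line the sinusoids and clear particles, bacteria and aged red blood cells from the portal blood. Colony-stimulating factor 1 and interleukin 34 maintain macrophages through the receptor encoded by *Csf1r*, and the transcription factor PU.1, encoded by *Spi1*, drives many genes of the lineage. In injured liver, monocytes enter from the blood and become macrophages that handle lipid and debris, among them cells marked by *Trem2* and *Gpnmb*. Neutrophils are short-lived phagocytes that carry S100A8 and S100A9 in large amounts, and conventional dendritic cells depend on the receptor FLT3 and present antigen to T cells.

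PU.1 binds purine-rich DNA with the core GAGGAA. RefSeq promoter windows of GRCm38.p6, each with the 250 bases before an annotated start, were given for 30 of the 35 genes, in 31 windows. GAGGAA, on either strand, stood in 16 of the 31 windows (51.6%), against 7639 of 32851 windows of all genes (23.3%). The longer run GAGGAAGT, which contains it, stood in 2 of the 31 windows (6.45%), against 2.44% of all windows. These are matches of letters and not measured sites. Windows are shown for the 4 genes that averaged 1 transcript or more per 1e6 transcripts (TPM) and had a single window with a match and no other annotated transcript start inside it, because these genes span the complement, Kupffer cell and lipid-associated groups below. *C1qb* lies at chr4:136886201-136886450 on the minus strand, *Cd5l* at chr3:87357631-87357880 on the plus strand, *Vsig4* at chrX:96293439-96293688 on the minus strand and *Trem2* at chr17:48346151-48346400 on the plus strand. Capitals mark GAGGAA or its reverse complement TTCCTC, and each sequence ends at the base before the start.
C1qb: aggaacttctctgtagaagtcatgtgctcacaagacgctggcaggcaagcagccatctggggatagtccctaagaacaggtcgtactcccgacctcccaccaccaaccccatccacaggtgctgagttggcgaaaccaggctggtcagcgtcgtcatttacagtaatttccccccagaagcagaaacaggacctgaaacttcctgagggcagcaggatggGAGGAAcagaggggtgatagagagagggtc
Cd5l: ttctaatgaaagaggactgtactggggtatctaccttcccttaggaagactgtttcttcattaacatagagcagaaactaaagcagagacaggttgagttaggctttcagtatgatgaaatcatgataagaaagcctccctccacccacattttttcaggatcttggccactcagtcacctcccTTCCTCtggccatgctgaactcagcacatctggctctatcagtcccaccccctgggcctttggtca
Vsig4: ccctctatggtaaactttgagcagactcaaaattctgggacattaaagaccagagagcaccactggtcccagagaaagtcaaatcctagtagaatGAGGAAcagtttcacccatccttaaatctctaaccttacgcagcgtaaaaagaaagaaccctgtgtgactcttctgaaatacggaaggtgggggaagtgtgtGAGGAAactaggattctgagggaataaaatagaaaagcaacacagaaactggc
Trem2: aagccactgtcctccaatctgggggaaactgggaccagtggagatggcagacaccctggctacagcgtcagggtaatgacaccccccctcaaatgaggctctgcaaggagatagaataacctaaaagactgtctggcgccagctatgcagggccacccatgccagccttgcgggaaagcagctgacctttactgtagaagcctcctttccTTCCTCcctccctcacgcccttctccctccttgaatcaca
The match began 30 bases before the start of *C1qb*, 66 before that of *Cd5l* and 40 before that of *Trem2*. *Vsig4* had 2 matches, which began 155 and 53 bases before its start.

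The estimated reads of a tumor summed to between 19130532 and 27681766, and between 10335 and 13007 genes reached 1 TPM. TPM is a share of all transcripts corrected for transcript length and scaled to a fixed sum. Tumor 1 of mouse 1 stood apart from the other 5 tumors in most of its transcriptome. Its 11 measured hepatocyte markers, among them *Alb*, summed to 1519 TPM, against 25593 to 42476 TPM in the other 5, and all 11 were lowest there. Its T, NK and B cell markers were low but not all at 0. *Cd3e*, *Cd3d*, *Cd8a* and *Klrb1c* of T and NK cells and *Ms4a1* of B cells had 0 reads in it, which allows up to 3 reads each, and had reads in all of the other 5 tumors. *Trac* and *Jchain* had 3 reads each, *Cd79a* 5, *Cd79b* 15 and *Ighm* 20 reads in that tumor. *Thy1*, which T cells share with fibroblasts, had 72 reads and 2.78 TPM there, inside the range of the other tumors. *Cd4*, which some macrophages and dendritic cells also express, had 46.3 TPM there and at most 1.78 TPM elsewhere. The most abundant marker of endothelium, *Clec4g*, had 0.988 TPM in that tumor and 10.3 to 26.1 TPM elsewhere. Not all endothelial markers were this low. Of 11 averaging 1 TPM or more, 8 were lowest there, and the median ratio to the median of the other 5 tumors was 0.46. *Pecam1* had 3.48 TPM there, against 3.97 to 10.3 TPM elsewhere. *Cdh5*, at 3.69 TPM, and *Emcn*, at 2.91 TPM, lay inside the range of the other 5 tumors, and *Flt1* was highest there at 14.8 TPM. The stellate cell gene *Dcn*, at 19.1 TPM, and the red blood cell gene *Hbb-bs*, at 895 TPM, also lay inside that range in that tumor. Of 10 stellate cell and fibroblast genes averaging 1 TPM or more, *Acta2*, *Pdgfra* and *Pdgfrb* were highest there and 0 were lowest. *Pdgfra* had 17.1 TPM in that tumor, against 0.0764 to 1.23 TPM elsewhere. Of 5 red blood cell genes, *Alas2* alone was lowest there, at 4.02 TPM against 37.3 to 79.7 TPM. Of the 12512 genes averaging 1 TPM or more, 62.6% were highest and 21.9% lowest in that tumor. Mitochondrial genes took 12.9% to 18.4% of the reads in mouse 2, against 6.85% to 8.34% in mouse 1. Among all pairs of tumors, numbers 2 and 3 of mouse 1 were closest, with a chi-square of 7.75 per gene over all genes and 3.68 per gene over the markers, against at least 26.3 per marker gene for every other pair. They differed by more than the sampling noise and were counted as 2 samples. Results are given with and without tumor 1 of mouse 1.

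The 35 genes together held 560, 1166 and 433 TPM in tumors 1, 2 and 3 of mouse 2, against 200 TPM in tumor 1, 1351 TPM in tumor 2 and 1343 TPM in tumor 3 of mouse 1. This was 0.0595% to 0.139% of the reads in mouse 2, against 0.0221% to 0.146% in mouse 1. The myeloid signal was thus lowest in tumor 1 of mouse 1, and tumor 2 of mouse 2 lay close to tumors 2 and 3 of mouse 1. In bulk tumors fewer cells of a type and less RNA per cell cannot be told apart. Of the 35 genes, 27 averaged 1 TPM or more and 8 did not. Of those 27, 25 were lowest in tumor 1 of mouse 1, where 21.9% of all genes at that level were lowest, and 0 were highest there, where 62.6% of all genes were highest. In 17 of the 27 the lowest of the other 5 tumors was more than 2 times the level of that tumor, as it was in 14.1% of all genes. The 2 exceptions were *Gpnmb* and *Itgax*. Hepatocyte markers and most lymphocyte markers were low in the same tumor, and their part in the low myeloid level was not tested. In the values that follow, the numbers of a mouse are those of its tumors 1, 2 and 3.

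**Figure D1:**
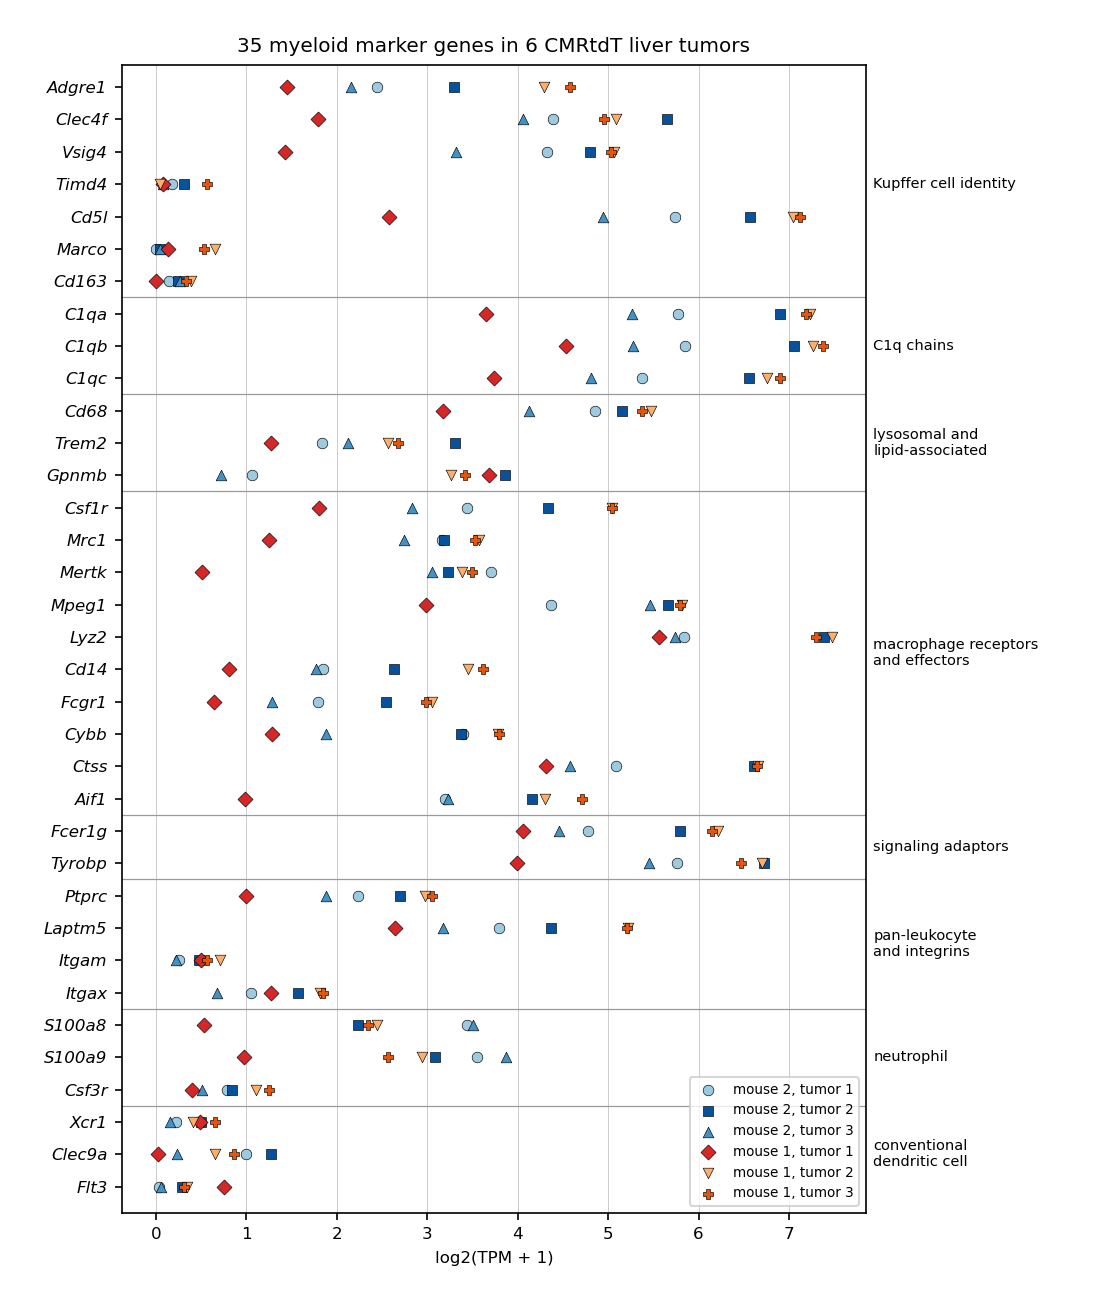
Level of each of the 35 marker genes as log2(TPM + 1) on the horizontal axis, 1 point per tumor, with genes grouped by role. The red diamonds of tumor 1 of mouse 1 lie left of the other 5 tumors in 28 of 35 genes, and right of them for *Flt3* alone.

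Of 7 Kupffer cell genes, 4 were above 1 TPM in every tumor, and all 4 were lowest in tumor 1 of mouse 1. *Cd5l*, which encodes a secreted protein of the scavenger receptor family that Kupffer cells make in large amounts, was the most abundant of the 7 and averaged 75.1 ± 54.7 TPM (SD, n = 6). It had 52.4, 94.2 and 29.7 TPM in mouse 2, against 4.99, 131 and 138 TPM in mouse 1. The gene is at chr3:87357881-87371074 of GRCm38. Without tumor 1 of mouse 1 its mean was 89.1 ± 47.6 TPM (SD, n = 5). *Clec4f*, a C-type lectin restricted to Kupffer cells in mice, had 19.9, 49.1 and 15.6 TPM in mouse 2, against 2.45, 33.1 and 30.1 TPM in mouse 1. Here the highest tumor was one of mouse 2. *Vsig4*, a complement receptor of resident macrophages, had 19.1, 26.9 and 8.98 TPM in mouse 2, against 1.70, 32.3 and 31.6 TPM in mouse 1. *Adgre1*, which encodes the F4/80 antigen, had 4.44, 8.82 and 3.46 TPM in mouse 2, against 1.74, 18.6 and 22.9 TPM in mouse 1. Tumors 2 and 3 of mouse 1 were above every other tumor for this gene. The heme oxygenase gene *Hmox1*, the most abundant of 10 companion genes of Kupffer cells, had 36.1, 65.4 and 42.2 TPM in mouse 2, against 27.6, 104 and 92.2 TPM in mouse 1. Of 8 such companions averaging 1 TPM or more, 7 were lowest and 1 highest in tumor 1 of mouse 1. The highest was *Kcna2*, at 12.3 TPM in that tumor, against 0.1702 to 0.919 TPM in the other 5. *Xlr*, with a mean under 1 TPM, was also highest there, at 2.85 TPM against at most 0.587 TPM. The median of the other 5 tumors was 18.9 times the level of tumor 1 of mouse 1 for *Cd5l*, 15.9 times for *Vsig4*, 12.3 times for *Clec4f* and 5.08 times for *Adgre1*.

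The other 3 Kupffer cell genes were near the limit of these libraries. *Timd4*, which encodes the phosphatidylserine receptor TIM4 of long-lived Kupffer cells, stayed between 0.031 and 0.48 TPM in all 6 tumors. *Cd163*, the hemoglobin scavenger receptor, reached at most 0.31 TPM. It had 0 reads in tumor 1 of mouse 1. *Marco*, a scavenger receptor for bacteria, had 0, 1 and 1 reads in mouse 2, against 3, 18 and 17 reads in mouse 1. Its reads thus came mainly from tumors 2 and 3 of mouse 1, at 0.58 and 0.44 TPM.

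The 3 chains of C1q, the first component of the classical complement pathway, followed nearly the same order over the tumors. In the liver macrophages are the main source of C1q. The 3 genes lie next to each other on chromosome 4. *C1qb*, at chr4:136880126-136886200, had 56.8, 132 and 37.8 TPM in mouse 2, against 22.2, 153 and 165 TPM in mouse 1. *C1qa* had 53.6, 119 and 37.4 TPM in mouse 2, against 11.5, 149 and 145 TPM in mouse 1. *C1qc* had 40.5, 93.4 and 27.1 TPM in mouse 2, against 12.3, 107 and 119 TPM in mouse 1. In each tumor *C1qc* was the lowest of the 3 chains except in tumor 1 of mouse 1, where *C1qa* was. The summed level of the 3 chains was 151, 344 and 102 TPM in mouse 2, against 46.1, 410 and 429 TPM in mouse 1.

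**Figure D2:**
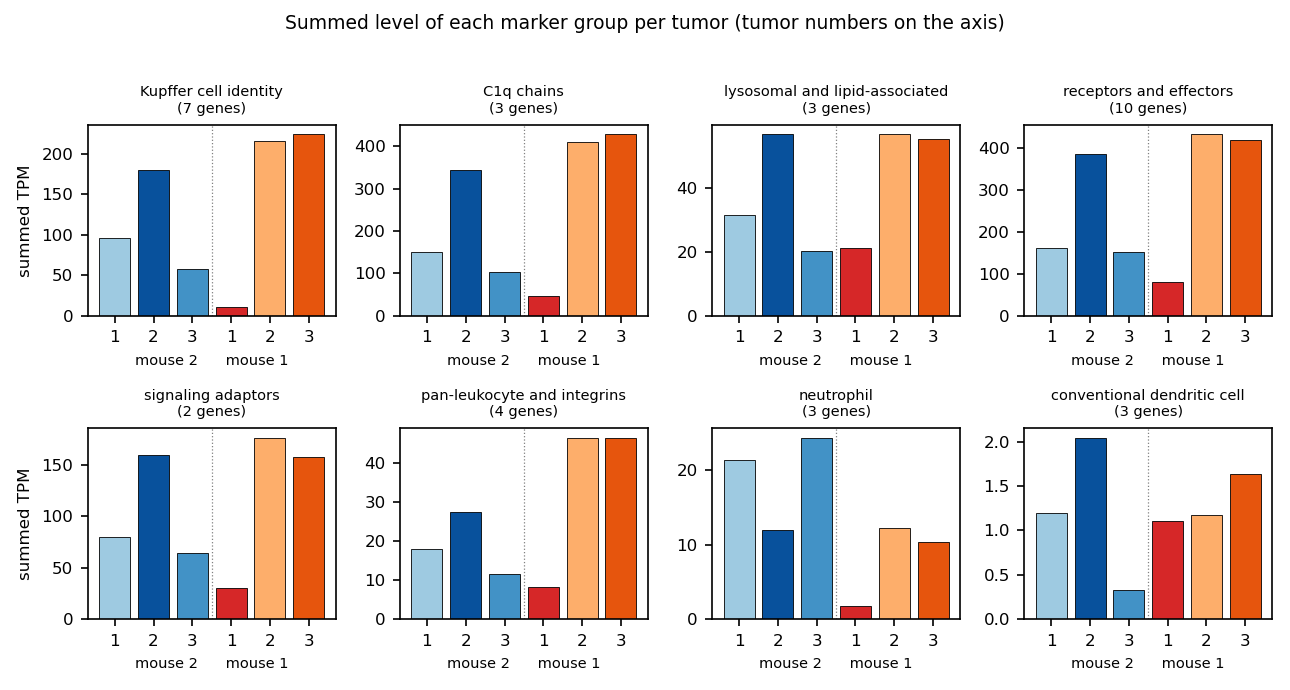
Summed TPM of the genes of each role on the vertical axis, 1 bar per tumor, with the 3 tumors of mouse 2 left of the 3 tumors of mouse 1 in each panel. Tumor 1 of mouse 1 has the lowest bar in 6 of the 8 groups, and the neutrophil group is the one in which tumors 1 and 3 of mouse 2 stand highest.

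Lysosomal and lipid-associated genes did not share 1 pattern. *Cd68*, a lysosomal glycoprotein of macrophages, had 27.9, 34.6 and 16.4 TPM in mouse 2, against 8.05, 43.4 and 40.5 TPM in mouse 1. *Trem2*, a lipid-sensing receptor, had 2.57, 8.87 and 3.37 TPM in mouse 2, against 1.41, 4.93 and 5.40 TPM in mouse 1. Tumor 2 of mouse 2 was the highest for this gene. *Gpnmb*, a lysosomal transmembrane glycoprotein found in lipid-laden macrophages, had 1.09, 13.5 and 0.646 TPM in mouse 2, against 11.8, 8.63 and 9.70 TPM in mouse 1. Its level varied 20.9-fold among the 5 tumors other than tumor 1 of mouse 1, more than that of any other marker averaging 1 TPM or more. In reads these were 73, 801 and 33 in mouse 2, against 624, 444 and 632 in mouse 1, so the low values of tumors 1 and 3 of mouse 2 rest on counts well above 0. The ranges of the mice overlapped only through tumor 2 of mouse 2. The secreted phosphoprotein gene *Spp1*, a companion of these genes in lipid-associated macrophages that epithelial cells also express, had 1.40, 17.6 and 4.17 TPM in mouse 2, against 33.0, 30.4 and 28.7 TPM in mouse 1. The most abundant companions of this group were *Plin2*, which coats lipid droplets in hepatocytes as well, and the lysosomal protease gene *Ctsd*. *Plin2* had 477, 832 and 455 TPM in mouse 2, against 49.5, 715 and 738 TPM in mouse 1. *Ctsd* was highest in tumor 1 of mouse 1, with 294, 518 and 201 TPM in mouse 2, against 723, 445 and 484 TPM in mouse 1. Of 12 such companions, 6 were lowest and 6 highest in that tumor. *Gpnmb* is also expressed by melanocytes and osteoclasts. Of 8 listed genes of those cells, *Tyrp1* had 0 reads in all 6 tumors, and *Mlana* and *Dct* had reads in 1 tumor each, 3 in tumor 3 of mouse 1 for *Mlana* and 1 in tumor 1 of mouse 1 for *Dct*. *Pmel* had 0.655 TPM and the osteoclast protease gene *Ctsk* 1.08 TPM in tumor 1 of mouse 1, both inside the range of the other 5. *Acp5*, which osteoclasts and macrophages express, was at 7.87 TPM in the same tumor and between 79.2 and 142 TPM elsewhere.

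The 10 macrophage receptors and effectors were all lowest in tumor 1 of mouse 1. *Csf1r*, the receptor for colony-stimulating factor 1 and interleukin 34, had 9.85, 19.1 and 6.14 TPM in mouse 2, against 2.49, 32.0 and 32.0 TPM in mouse 1. *Mertk*, a receptor by which macrophages take up dead cells, had 12.0, 8.41 and 7.32 TPM in mouse 2, against 0.419, 9.41 and 10.2 TPM in mouse 1. It was the gene in which tumor 1 of mouse 1 stood farthest from the rest, with 30 reads against 506 to 978 in the other 5 tumors. *Mrc1*, the mannose receptor CD206 of macrophages and sinusoidal endothelium, had 7.98, 8.10 and 5.71 TPM in mouse 2, against 1.37, 10.8 and 10.6 TPM in mouse 1. Of this, the retained-intron transcript Mrc1-202 held 3.17, 3.07 and 2.86 TPM in mouse 2, against 0.401, 0.242 and 0.807 TPM in mouse 1. The coding transcript Mrc1-201 had 4.81, 5.03 and 2.85 TPM in mouse 2, against 0.972, 10.6 and 9.77 TPM in mouse 1. It varied more among the other 5 tumors than the gene did. Summed over transcripts, *Mertk* and *Mrc1* varied only 1.64-fold and 1.90-fold among the other 5 tumors, the smallest ranges of the 27 genes. By Dixon's ratio on log2(TPM + 1) they were the 2 of the 27 markers in which 1 tumor stood apart, whereas this held for 38.8% of all genes averaging 1 TPM or more. The contrast depended on the scale: with a pseudocount of 0.1 it was 4 of 27 markers and 33.8% of all genes, and with TMM-scaled counts per 1e6 reads 12 of 27 markers and 40% of all genes.

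*Lyz2*, which encodes lysozyme and is shared by macrophages, monocytes and neutrophils, was the most abundant of the 35 genes and had 56.3, 166 and 52.3 TPM in mouse 2, against 46.1, 177 and 156 TPM in mouse 1. Tumor 1 of mouse 1 was here close to tumors 1 and 3 of mouse 2. *Ctss*, the protease cathepsin S that trims the invariant chain for antigen presentation, had 33.0, 97.2 and 23.0 TPM in mouse 2, against 18.9, 99.7 and 98.9 TPM in mouse 1. Tumor 1 of mouse 1 and tumor 3 of mouse 2 were lowest, as for the C1q chains. *Mpeg1*, which encodes the pore-forming protein perforin-2, had 19.7, 49.6 and 43.1 TPM in mouse 2, against 6.90, 55.4 and 54.6 TPM in mouse 1. It was 1 of 5 markers, with *Trem2*, *Aif1*, *S100a8* and *S100a9*, in which tumor 3 was not the lowest of mouse 2. *Cybb*, the NADPH oxidase subunit gp91phox, had 9.50, 9.32 and 2.68 TPM in mouse 2, against 1.44, 12.8 and 12.9 TPM in mouse 1. *Aif1*, which encodes the actin-binding protein IBA1, had 8.16, 16.9 and 8.36 TPM in mouse 2, against 0.984, 18.7 and 25.1 TPM in mouse 1. Its 11 reads in tumor 1 of mouse 1 were the fewest of the 10 genes. *Cd14*, the coreceptor for bacterial lipopolysaccharide, had 2.61, 5.18 and 2.41 TPM in mouse 2, against 0.750, 9.97 and 11.3 TPM in mouse 1. *Fcgr1*, the high-affinity receptor for immunoglobulin G, ranged from 1.44 to 4.83 TPM in mouse 2, against 0.565 to 7.28 TPM in mouse 1.

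The adaptors that carry the signals of such receptors were also lowest in tumor 1 of mouse 1. *Tyrobp*, the adaptor DAP12 of TREM2 and related receptors, had 53.3, 105 and 42.8 TPM in mouse 2, against 14.9, 103 and 87.7 TPM in mouse 1. *Fcer1g*, the common gamma chain of Fc receptors, had 26.5, 54.7 and 21.0 TPM in mouse 2, against 15.7, 73.4 and 69.8 TPM in mouse 1. *Tyrobp* reads were divided among 3 transcripts, and the estimate put 0 reads on the transcript Tyrobp-201 and 83.3 on Tyrobp-202 in tumor 1 of mouse 1. In mouse 2 Tyrobp-201 held 176, 306 and 151 reads. These transcripts are nearly the same length, 564 and 597 bases, and how reads are divided between them is uncertain, whereas the sum for the gene is less so.

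*Ptprc* encodes CD45, the phosphatase on nearly all white blood cells. It had 3.69, 5.48 and 2.68 TPM in mouse 2, against 0.994, 6.84 and 7.28 TPM in mouse 1. The 75 reads of tumor 1 of mouse 1 have a 95% exact Poisson interval of 59.0 to 94.0, which covers counting error only. *Laptm5*, a lysosomal protein of blood cells, had 12.9, 19.6 and 8.02 TPM in mouse 2, against 5.26, 36.3 and 36.1 TPM in mouse 1. The 2 integrin chains were low and did not share this order. *Itgam*, the CD11b chain of monocytes and neutrophils, stayed between 0.162 and 0.640 TPM, and *Itgax*, the CD11c chain of dendritic cells and some macrophages, had 1.07, 1.97 and 0.597 TPM in mouse 2, against 1.42, 2.52 and 2.59 TPM in mouse 1. In both, tumor 1 of mouse 1 lay inside the range of the other 5 tumors.

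Levels were also set against *Ptprc* in the same tumor, a ratio that does not depend on how a tumor was scaled. Of 25 markers other than *Ptprc* and *Laptm5*, 8 were below all other tumors in tumor 1 of mouse 1 also when *Laptm5*, the sum of the 35 genes or coding transcripts alone were used: *Clec4f*, *Vsig4*, *Cd5l*, *C1qa*, *Mrc1*, *Mertk*, *Aif1* and *S100a8*. Of all genes, 8.58% were below under all 4 ratios. For *Mertk* the ratio was 0.422 in tumor 1 of mouse 1, against 1.38 to 3.25 in the other 5 tumors. For *Cd5l* it was 5.02, against 11.1 to 19.1, and for *Clec4f* 2.47, against 4.13 to 8.96. The margin was small for *Mrc1*, at 1.38 against 1.45 to 2.16, and for *C1qa*, at 11.6 against 14.0 to 21.9. *S100a8* was at 0.453, against 0.560 to 3.85, from 2 reads in tumor 1 of mouse 1. The denominator there was the 75 reads of *Ptprc*. Under the same 4 ratios, 4 markers were above all other tumors in tumor 1 of mouse 1, namely *Gpnmb*, *Lyz2*, *Fcer1g* and *Itgax*, as were 77.1% of all genes. *Gpnmb* was at 11.9 times *Ptprc* there, against 0.241 to 2.47 times in the other 5 tumors, and *Lyz2* at 46.4 times, against 15.3 to 30.3 times. The other 13 of the 25 lay inside the range of the other tumors under at least 1 of the ratios. Among these, *Cd68* in tumor 1 of mouse 1 was above all other tumors relative to *Ptprc*, but below them with coding transcripts alone.

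**Figure D3:**
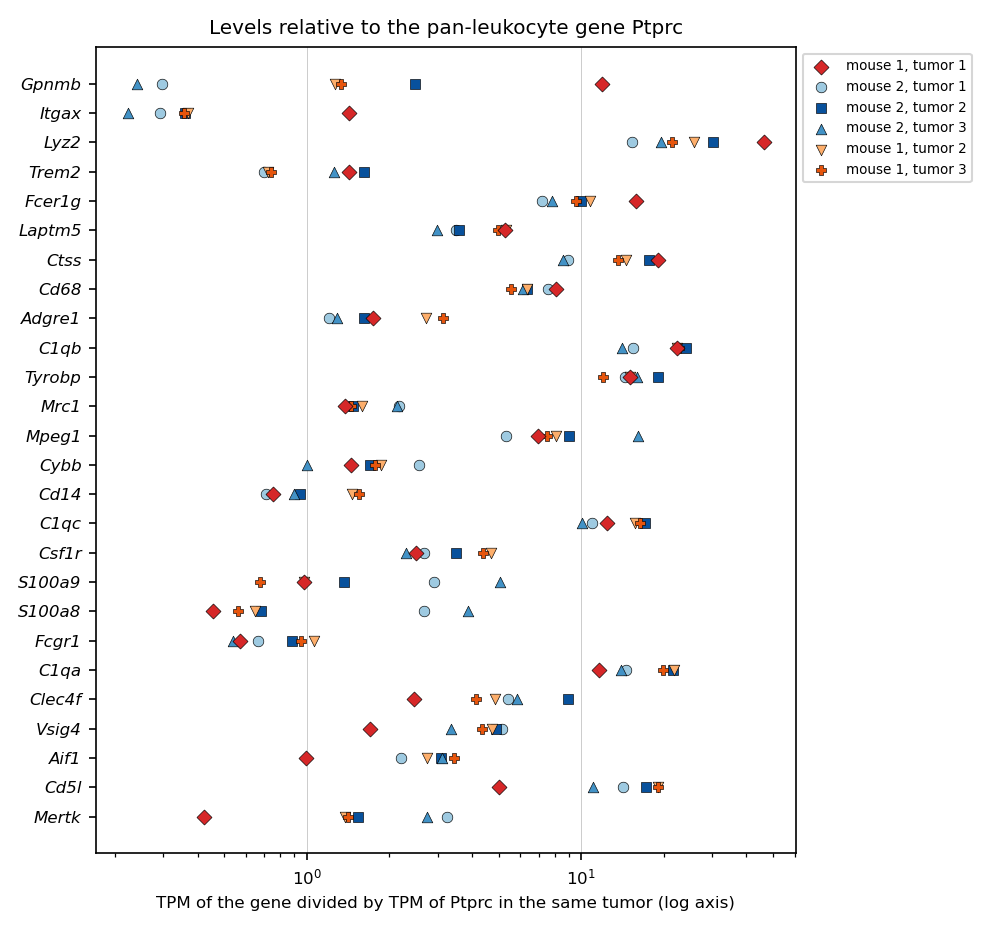
TPM of each marker divided by the TPM of *Ptprc* in the same tumor, on a logarithmic horizontal axis, 1 point per tumor, with genes ordered by how tumor 1 of mouse 1 compares with the median of the other 5. *Mertk* at the bottom is at 0.422 in tumor 1 of mouse 1 and *Gpnmb* at the top is at 11.9, both outside the range of the other tumors.

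Of 3 neutrophil genes, *S100a8* and *S100a9* took a different order from most macrophage genes. *S100a9*, which with *S100a8* forms the calcium-binding dimer calprotectin, had 10.7, 7.50 and 13.6 TPM in mouse 2, against 0.969, 6.67 and 4.90 TPM in mouse 1. The gene is at chr3:90692630-90695721 of GRCm38. All 3 tumors of mouse 2 were above all 3 of mouse 1, which held for 1 of the 27 markers and for 1.74% of all genes. The margin was small, 7.50 TPM from 36 reads in tumor 2 of mouse 2 against 6.67 TPM from 31 reads in tumor 2 of mouse 1, and the 95% Poisson intervals of these reads, 25.2 to 49.8 and 21.1 to 44.0, overlap. *S100a8* had 9.85, 3.72 and 10.3 TPM in mouse 2, against 0.450, 4.44 and 4.07 TPM in mouse 1. Tumors 1 and 3 of mouse 2 were the highest for both genes and the low tumors of mouse 2 for most macrophage genes. *Csf3r*, the receptor for granulocyte colony-stimulating factor, stayed between 0.315 and 1.38 TPM and was highest in tumor 3 of mouse 1. Its order over the tumors was that of *C1qb*. Of 12 further neutrophil genes, *Ly6g*, which defines mouse neutrophils, was at 0 TPM in 5 tumors and at 0.084 TPM in tumor 1 of mouse 2. The granule genes *Camp*, *Ngp*, *Ltf*, *Mpo* and *Elane* reached at most 1.17 TPM. Only 2 of the 12 averaged 1 TPM or more, and they went opposite ways. *S100a6*, which many cell types express, had 3.83, 11.9 and 4.51 TPM in mouse 2, against 657, 20.2 and 18.0 TPM in mouse 1. *Lcn2*, which injured hepatocytes also make, was at 88.5 to 155 TPM in mouse 2, against 5.001 to 118 TPM in mouse 1.

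**Figure D4:**
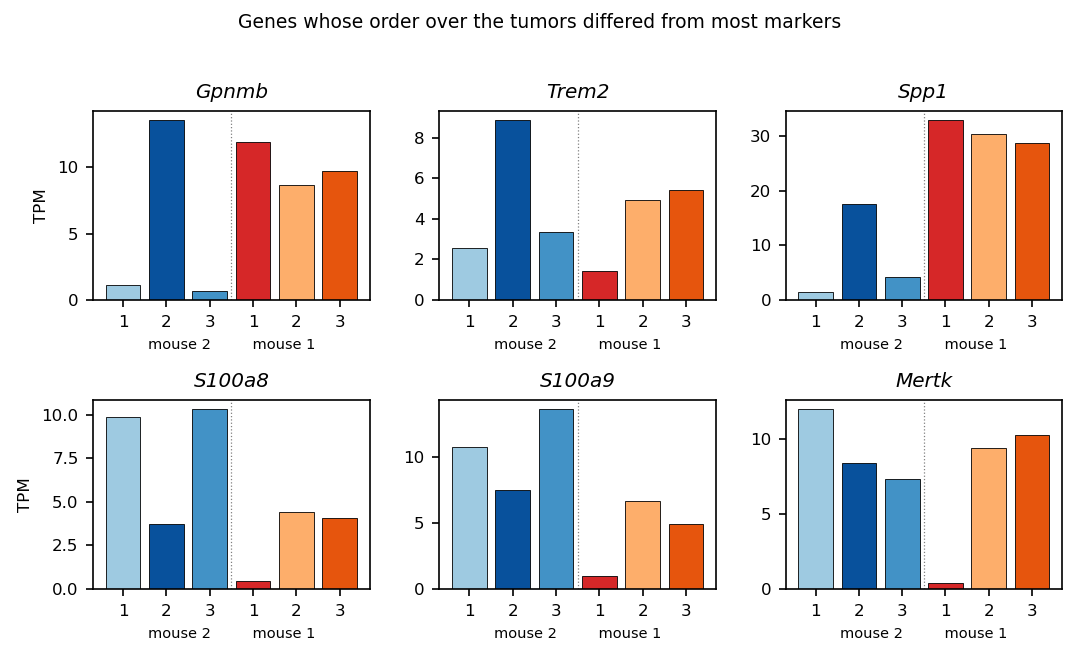
TPM of 6 genes on the vertical axis, 1 bar per tumor, with the tumors of mouse 2 left of those of mouse 1; the genes were chosen after their values were seen. *Gpnmb* and *Spp1* are low in tumors 1 and 3 of mouse 2, *S100a8* and *S100a9* are highest in those tumors, and *Mertk* is at 0.419 TPM in tumor 1 of mouse 1.

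The 3 dendritic cell genes reached at most 1.41 TPM. *Clec9a*, a receptor of conventional type 1 dendritic cells for dead cells, had 1.00, 1.41 and 0.173 TPM in mouse 2, against 0.020, 0.574 and 0.823 TPM in mouse 1. *Xcr1*, a chemokine receptor of the same cells, stayed between 0.115 and 0.574 TPM. *Flt3*, the cytokine receptor of dendritic cell precursors, had 2, 15 and 3 reads in mouse 2, against 44, 17 and 19 reads in mouse 1. It was the only marker highest in tumor 1 of mouse 1, at 0.682 TPM against at most 0.267 TPM elsewhere, while *Clec9a* had 1 read there. The antigen presentation genes *Cd74*, *H2-Aa* and *H2-Ab1*, which macrophages and B cells express too, were far higher. *Cd74* had 99.2, 340 and 76.3 TPM in mouse 2, against 52.0, 451 and 485 TPM in mouse 1. Of 6 companion genes of dendritic cells that averaged 1 TPM or more, these 3 were lowest and the other 3 highest in tumor 1 of mouse 1. *Cadm1*, an adhesion gene of type 1 dendritic cells and of many epithelia, had 8.99, 16.0 and 6.16 TPM in mouse 2, against 399, 33.7 and 34.1 TPM in mouse 1. *Cd24a*, which many epithelial cells express too, was at 237 TPM in tumor 1 of mouse 1, against 0.826 to 15.1 TPM in the other 5. *Naaa* was at 14.9 TPM there, against 1.80 to 7.66 TPM in those 5.

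The ligands of these receptors were measured in the same tumors. *Csf1*, the growth factor of macrophages, had 5.97, 10.0004 and 4.38 TPM in mouse 2, against 1.88, 7.57 and 8.07 TPM in mouse 1. *Il34*, the other ligand of the same receptor, reached at most 1.22 TPM, and *Csf3* had 0 reads in all 6 tumors. *Gas6*, a ligand of MERTK and AXL, had 38.0, 77.2 and 68.0 TPM in mouse 2, against 30.2, 92.5 and 103 TPM in mouse 1. *Apoe*, a lipoprotein component that TREM2 can bind and hepatocytes make in quantity, was at 15969 to 20048 TPM in mouse 2, against 481 to 23081 TPM in mouse 1, with tumor 1 of mouse 1 lowest. *Flt3l* was highest, at 10.3 TPM, in tumor 1 of mouse 1, where its receptor gene *Flt3* was highest too. *Spi1* had 3.60, 8.88 and 4.06 TPM in mouse 2, against 0.958, 11.9 and 9.05 TPM in mouse 1. *Cebpa*, a factor of both myeloid cells and hepatocytes, had 89.8, 79.7 and 88.6 TPM in mouse 2, against 6.83, 171 and 183 TPM in mouse 1. Among partner receptors, *Ly96*, the MD-2 partner of TLR4, had 16.6, 17.8 and 27.3 TPM in mouse 2, against 8.22, 11.2 and 16.0 TPM in mouse 1. Of 85 listed companion genes (ligands, partner receptors, transcription factors and further markers of each cell type), 59 averaged 1 TPM or more. Of these, 39 were lowest and 17 highest in tumor 1 of mouse 1. Of all genes at that level, 21.9% were lowest and 62.6% highest there. Among the 17 were *Csf2ra* at 38.4 TPM against 0.870 to 8.84 TPM, the kinase gene *Syk* at 17.2 TPM against 0.705 to 4.12 TPM, *Lgals3* at 139 TPM against 10.5 to 38.6 TPM and *Fabp5* at 474 TPM against 5.86 to 24.8 TPM. These 4 genes are also expressed outside myeloid cells, and they were chosen after their values were seen.

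Within mouse 2, tumor 2 carried more of the macrophage genes than tumors 1 and 3. Of the 27 markers, 23 were highest of that mouse in tumor 2, as were 55.6% of all genes averaging 1 TPM or more, and 22 were lowest in tumor 3, as were 56.6% of all genes. The level of tumor 2 was 15.6 times the mean of tumors 1 and 3 for *Gpnmb*, 3.47 times for *Ctss*, 3.06 times for *Lyz2* and 2.80 times for *C1qb*. The 4 genes that were not highest in tumor 2 were *Mertk*, *Cybb*, *S100a8* and *S100a9*. Tumor 2 of mouse 2 was within 1.5-fold of tumor 2 of mouse 1 in 20 of the 27 markers, whereas it was so close to tumor 1 of its own mouse in 7 and to tumor 3 of its own mouse in 3. With 1 tumor on each side these are values with no test.

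Between the mice, no marker passed the test with all 6 tumors. Of 33 markers that passed the filter on low counts, 0 were called by edgeR's quasi-likelihood test at a Benjamini-Hochberg adjusted p of 0.05, as were 0% of all 13259 genes tested. At an unadjusted p under 0.05 there were 0 of the 33 markers and 1448 of all genes (10.9%), and DESeq2 called 0 markers, and 133 genes higher and 69 genes lower in mouse 2. The median log2 fold change of mouse 2 over mouse 1 was 0.04 over the 33 markers and -0.05 over all genes tested. The 2 with the largest positive difference were *S100a8*, with a log2 fold change of 1.98 (SE 1.03), and *S100a9*, with 1.92 (SE 0.88). The adjusted p was 0.552 for *S100a8* and 0.506 for *S100a9* in edgeR's test. Without tumor 1 of mouse 1 the SE of *S100a9* was 0.49 and its log2 fold change 1.42.

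Without tumor 1 of mouse 1, most markers had negative differences. Of the 27 markers averaging 1 TPM or more, 19 were lower in all 3 tumors of mouse 2 than in tumors 2 and 3 of mouse 1, as were 57.4% of all genes, and 1 (*S100a9*) was higher in all 3, as were 4.49% of all genes. With all 6 tumors 0 of the 27 were lower in every tumor of mouse 2, as were 41.9% of all genes. Over 34 markers tested the median log2 fold change was -0.48, against 0.01 over all 13365 genes. edgeR called 0 of the 34 and 1.26% of all genes, and at an unadjusted p under 0.05 there were 7 of the 34 and 20% of all genes, of which 6 were lower in mouse 2 (*Marco*, *Adgre1*, *Cd14*, *Laptm5*, *Mrc1* and *Csf1r*) and 1 was higher (*S100a9*). *Adgre1* had a log2 fold change of -1.31 (SE 0.30), with an adjusted p of 0.0914 by edgeR. *Cd14* had one of -1.20 (SE 0.30) and *Laptm5* one of -0.93 (SE 0.26). DESeq2, in a comparison added after the data were seen, called these 3 genes lower in mouse 2, as it did 4.39% of all genes, and called 0 markers higher. limma-voom called 0 markers in these 5 tumors. Mouse 1 then has 2 tumors only, which were the closest pair of the series.

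**Figure D5:**
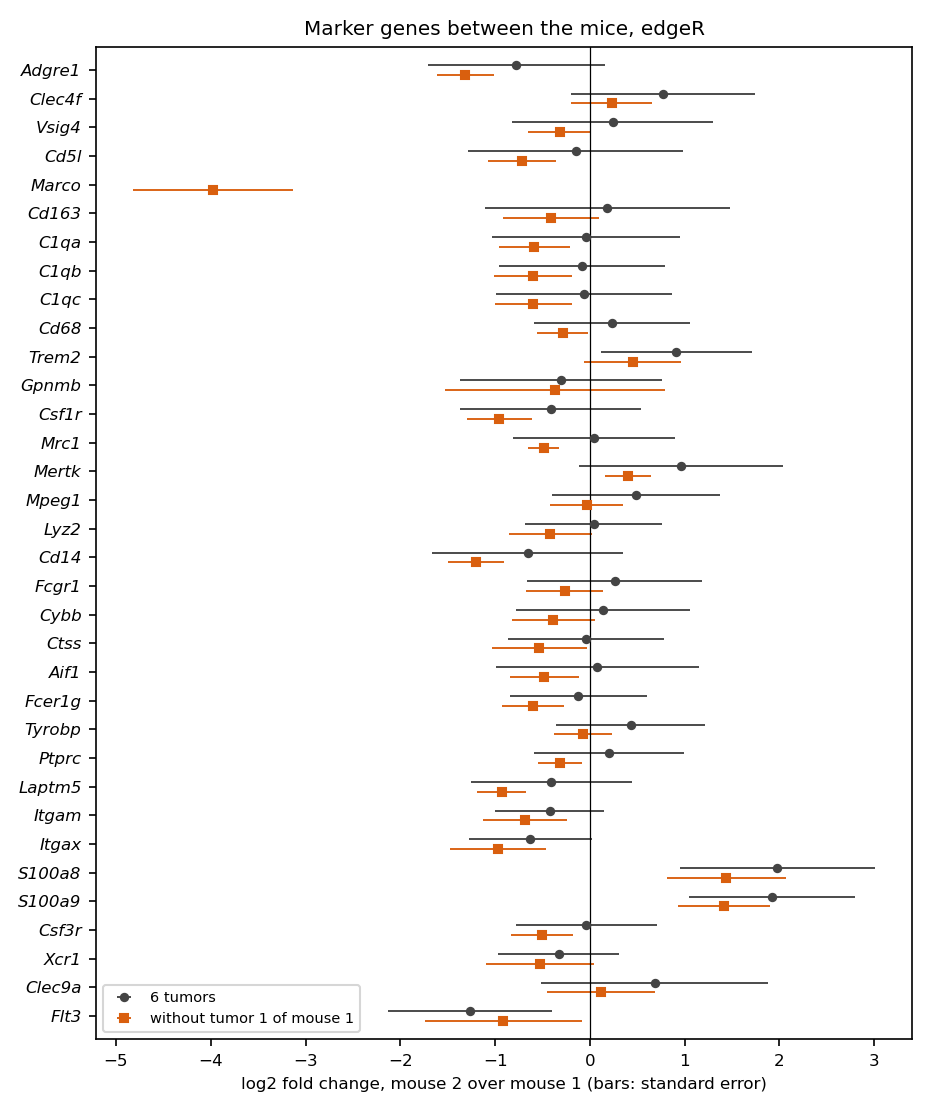
Log2 fold change of mouse 2 over mouse 1 by edgeR on the horizontal axis for each marker that could be tested, with bars of 1 standard error, for all 6 tumors (circles) and without tumor 1 of mouse 1 (squares). *S100a8* and *S100a9* lie at 1.98 and 1.92 with 6 tumors, and *Marco*, tested only without that tumor, lies at -3.97 on 0, 1 and 1 reads in mouse 2 against 18 and 17 reads in mouse 1.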

How the data were processed

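RNAseq of 6 tumors, 3 from each of 2 CMRtdT mice, was used and no tumor was left out. The deposited table of each tumor lists transcripts with their length in bases, estimated counts and TPM, in the layout of Salmon. The deposited estimated counts carry no normalization, whereas the authors' TPM values are scaled for effective length and depth. Processing notes of the submitters list Picard, BWA and GRCm38; the release of the index was not given in any source used. Of 116546 transcripts, 114813 were matched by identifier to GENCODE vM39, used for names alone, and counts and TPM were summed per symbol; the other 1733 took 0.373% to 0.68% of the reads. *Tf*, of the hepatocyte list, was not matched by symbol. Library totals, 19130532 to 27681766 reads, set the precision, and a count of 0 allows up to 3 reads, for counting error only.

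Rounded gene counts were compared, mouse 2 over mouse 1, with edgeR 4.0.16 (quasi-likelihood, TMM, filterByExpr, two-sided, Benjamini-Hochberg over all genes), and by DESeq2 1.42.0 and limma-voom (limma 3.58.1) in R 4.3.3. The p-values measure the spread between tumors of 1 animal. Ranks and Dixon's ratio (log2 of TPM plus 1; critical value 0.625 at 6 values) were taken over genes averaging 1 TPM or more. Tumor numbers are shared between mice, but deviations of same-numbered tumors correlated at 0.025, -0.042 and 0.05, so they were not treated as pairs. The members, gene lists and tests were chosen with earlier results of these data known. All 35 members are named, with values in every tumor for those with a mean of at least 5 TPM, called in any comparison or standing apart, and the most abundant gene or genes of each companion list. Alternatives were other tools, scalings, filters, pseudocounts and denominators, a block for tumor number, and omission of each tumor. The tests were tried on simulated counts. Tables and figures were made in Python 3.11.15 with pandas 2.3.3, numpy 2.4.6, matplotlib 3.10.9 and scipy 1.17.1. Expression of the study's other experiments is not analysed here.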

Additional observations from a re-analysis of the deposited data

Results flagged for a closer look

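Among the 35 markers, 2 had 1 tumor far from the other 5 by Dixon's ratio, which chance gives in about 1 of 20 groups, and in both it was tumor 1 of mouse 1 on the low side. Both were among the 27 markers averaging 1 TPM or more. Of all genes at that level, 38.8% had 1 tumor this far apart, so on this scale the markers did so less often than genes in general. With a pseudocount of 0.1 it was 4 of 27 markers against 33.8% of all genes. With TMM-scaled CPM it was 12 of 27 markers against 40% of all genes, and there the markers did so no less often. *Mertk* had 0.419 TPM in tumor 1 of mouse 1, against 7.32 to 12.0 TPM in the other 5 tumors, with a ratio of 0.799. *Mrc1* had 1.37 TPM in tumor 1 of mouse 1, against 5.71 to 10.8 TPM in the other 5 tumors, with a ratio of 0.647. This ratio is of the sum of transcripts, in which the retained-intron Mrc1-202 held 2.86 to 3.17 TPM in mouse 2. The coding transcript Mrc1-201 alone lay nearer, at 0.972 TPM in tumor 1 of mouse 1, against 2.85 to 10.6 TPM in the other 5. Sinusoidal endothelium also expresses *Mrc1*, and 8 of 11 endothelial markers with a mean of at least 1 TPM were lowest in the same tumor; their part in its level was not tested.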

How the results depend on the processing

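That 25 of 27 markers were lowest in tumor 1 of mouse 1 held with TMM-scaled CPM, without mitochondrial and top 10 genes, and without each other tumor in turn; it was 22 of 23 at a mean of at least 5 TPM and 28 of 35 with no filter. Markers with 1 tumor standing apart numbered 4 with a pseudocount of 0.1 and 12 with TMM-scaled CPM, against 33.8% and 40% of all genes. Below all other tumors in tumor 1 of mouse 1 relative to *Ptprc* were 8 markers, and 15 with *Laptm5* and 13 with the sum of markers as the denominator. The share of all genes was taken only under all 4 ratios together, at 8.58%. Markers higher in every tumor of mouse 2 numbered 2 with TMM-scaled CPM, a count for which no share of all genes was taken. Those lower in every tumor of mouse 2 numbered 0 with 6 tumors, against 41.9% of all genes. Without tumor 1 of mouse 1 they numbered 19, against 57.4% of all genes. TMM against library size alone moved the median log2 fold change of all genes to -0.05 from -0.55, and the 16 negative and 17 positive markers became 23 and 10 with library size alone and 5 and 28 by limma-voom. *Adgre1*, *Cd14* and *Laptm5* changed sign by limma-voom with 6 tumors, to 0.12, 0.54 and 0.23. With tumor number as a block, 0 markers were called, the median was 0.56, and *Cd14* and *Laptm5* were at 0.049 and 0.12. Leaving out 1 tumor at a time, edgeR called 0 markers, with medians of -0.48 to 0.43. Without tumor 1 of mouse 1, DESeq2 called 3 lower in mouse 2, where edgeR, limma-voom and library size alone called 0. The cause of these changes was not tested. Depth limits the 8 markers with means under 1 TPM, and 6 tumors of 2 animals cannot separate mouse from tumor.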

Other observations

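Among monocyte genes, *Plac8* had 16.9, 29.6 and 16.2 TPM in tumors 1, 2 and 3 of mouse 2, against 2.96, 18.8 and 13.5 TPM in the same-numbered tumors of mouse 1. *Ly6c2*, which marks inflammatory monocytes, had 1.52, 4.03 and 2.80 TPM in mouse 2, against 0.390, 5.13 and 3.58 TPM in mouse 1. The monocyte receptors did not share this order: *Ccr2* had 1.21 TPM and *Cx3cr1* 1.75 TPM in tumor 1 of mouse 1. Both lay inside the ranges of the other 5 tumors, 0.449 to 1.77 TPM and 0.142 to 2.29 TPM. *F13a1*, a further gene of the monocyte list, was near the limit of these libraries. It had 0.294 TPM from 19 reads in tumor 1 of mouse 1, close to 0.268 TPM from 21 reads in tumor 3 of that mouse. *Slc40a1*, the iron exporter ferroportin of Kupffer cells and hepatocytes, had 53.8, 71.4 and 32.0 TPM in mouse 2, against 3.56, 84.7 and 84.9 TPM in mouse 1. The inhibitor of differentiation gene *Id3*, needed for Kupffer cells, went the other way, with 434 TPM in tumor 1 of mouse 1, against 18.3 to 36.4 TPM in the other 5 tumors. Other cell types express it too, and their part in this level was not tested.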
